A study of Mus musculus with 9 samples.

Results

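AP-1 is a family of dimeric transcription factors, and the genes described here are its FOS subunits (Fos, Fosb, Fosl1, Fosl2), its JUN subunits (Jun, Junb, Jund), the related basic leucine zipper gene Atf3, and Egr1 and Ier2, which are switched on beside them. The rule names these 10 genes by symbol, with no threshold on their values, and it was written with earlier results of these data known. All 10 had a row among the 24411 genes of the deposited tables, and 9 of the 10 passed the filter on low counts. The gene left out by the filter was Fosl1, at 0.18 to 0.62 TPM, a level scaled to transcript length and library depth, over all libraries. The filter asked for enough counts in at least 3 libraries, of whatever genotype, and each of the 9 had counts in every library. Fosb had 14 to 20 expected counts in Parental and 2 to 16 in edited libraries. It passed only with the Parental libraries counted, where it was highest on average, and it is kept in the counts and medians of the 9 below.

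RNA was sequenced from EB5 cells, a mouse embryonic stem cell line derived from male E14tg2a cells of 129Ola origin that carries Oct3/4IRES-BSD-pA/+ on 1 Oct3/4 allele, so every group shared that insertion. Parental cells had no further edit, Zfp352-KO cells had the Zfp352 gene deleted with CRISPR-Cas9, and Zfp352/Zfp353-DKO cells had both Zfp352 and Zfp353 deleted. There were 3 libraries of each genotype, and the edited genotypes are abbreviated KO and DKO from here on. Cells of each genotype grew on gelatin in GMEM with 10% fetal calf serum and leukemia inhibitory factor, and the labels name no stimulating agent. The labels do not say how many clones an edited line came from, or whether libraries of a genotype were separate cultures. A p-value here sets the difference between genotypes against the spread between libraries only. That spread may be technical and may hold no variation between clones or cultures.

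FOS proteins pair with JUN proteins, and JUN proteins also pair among themselves, to bind the AP-1 site or the related cyclic AMP response element (CRE). Growth factors and stress act through ERK, JNK and p38 kinases and through serum response factor to raise transcription of these immediate early genes within minutes, without new protein synthesis. Their mRNAs are short-lived, partly through AU-rich elements in the 3′ untranslated region.

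The upstream sequences of the members that fell in both edited genotypes are shown first, with that of Fos, which did not pass the test, for comparison. RefSeq's GRCm38.p6 table (the assembly called mm10) held a start-site window for 7 of the 10 genes (Fos, Fosb, Fosl2, Jun, Junb, Jund and Atf3). The 250 bases before the start site are printed 5′ to 3′ on the gene's own strand. Capitals mark any AP-1 site (TGANTCA), CRE (TGACGTCA), TGACATCA (the variant AP-1 site of the Jun promoter), shortened CRE (TGACG), EGR site (GCGNGGGCG), TATA box (TATAAA) or CArG box, the element of serum response factor, on either strand. The sequence of Jund held none of these motifs and is not printed.
Fosl2, chr5:32136222-32136471, plus strand: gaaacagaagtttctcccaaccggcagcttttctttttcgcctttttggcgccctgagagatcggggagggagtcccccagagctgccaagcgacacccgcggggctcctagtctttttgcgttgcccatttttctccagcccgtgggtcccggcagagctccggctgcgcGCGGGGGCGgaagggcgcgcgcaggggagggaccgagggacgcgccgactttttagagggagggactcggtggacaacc
Jun, chr4:95052223-95052472, minus strand: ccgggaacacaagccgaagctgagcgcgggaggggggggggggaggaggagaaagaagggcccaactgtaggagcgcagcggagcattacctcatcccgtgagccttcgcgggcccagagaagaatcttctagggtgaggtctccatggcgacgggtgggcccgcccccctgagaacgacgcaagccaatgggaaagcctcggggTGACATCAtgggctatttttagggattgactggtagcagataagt
Junb, chr8:84978749-84978998, minus strand: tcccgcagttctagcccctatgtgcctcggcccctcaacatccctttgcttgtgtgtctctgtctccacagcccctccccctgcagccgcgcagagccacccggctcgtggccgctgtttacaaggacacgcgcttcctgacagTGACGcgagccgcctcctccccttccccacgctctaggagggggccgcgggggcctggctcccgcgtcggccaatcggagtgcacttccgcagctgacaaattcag
Atf3, chr1:191183334-191183583, minus strand: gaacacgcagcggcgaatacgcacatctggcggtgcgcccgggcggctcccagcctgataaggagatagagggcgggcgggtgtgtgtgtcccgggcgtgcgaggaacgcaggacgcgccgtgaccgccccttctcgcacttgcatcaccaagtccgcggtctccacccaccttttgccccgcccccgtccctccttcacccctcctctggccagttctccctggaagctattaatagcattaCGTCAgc
Fos, chr12:85473640-85473889, plus strand: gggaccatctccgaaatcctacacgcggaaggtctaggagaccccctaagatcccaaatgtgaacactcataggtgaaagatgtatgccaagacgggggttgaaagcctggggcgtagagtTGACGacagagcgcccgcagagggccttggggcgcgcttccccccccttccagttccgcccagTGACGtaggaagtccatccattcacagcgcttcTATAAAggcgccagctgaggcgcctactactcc

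None of the 7 windows held TGANTCA, which 6.75% of 32851 windows of the same length did, nor TGACGTCA (1.55%) or a CArG box (1.47%). TGACATCA stood 45 bases before the start of Jun and was found in 2.93% of windows. TGACG stood in the windows of Atf3, Fos, Fosb and Junb, against 17.8% of all windows, and GCGNGGGCG in those of Fosb and Fosl2, against 4.70%. The TATAAA in the Fos window began 33 bases before the start, and 12.4% of windows held one. A window with no match says only that these letters are not in those 250 bases.

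Some of the members also share transcript features that played no part in their choice. Jun, Junb, Jund and Ier2 are single-exon genes in the annotation, as were 2.48% of 13587 tested genes with a matched 3′ untranslated region. The pentamer ATTTA, the core of the AU-rich element, occurred 4 times in the 3′ untranslated region of Fos, or 4.91 per kilobase. Junb had 4.12, Jun 3.24, Atf3 2.53, Jund 1.88, Fosl2 1.72, Egr1 1.68 and Fosl1 1.57 per kilobase, and the median of tested genes was 1.22. Fosb, at 0.466 per kilobase, lay below that median. Fosl2 had the most copies, 8, in a long region of 4653 bases, while Ier2 had none. The nonamer TTATTTATT was found in Fos and Fosl2 and in 7.56% of tested genes.

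By position (GRCm38.p6), Fosl2 lies on chromosome 5 at 32136472 to 32157840, Atf3 on chromosome 1 at 191170296 to 191183333 and Fos on chromosome 12 at 85473890 to 85477274. Jun lies on chromosome 4 at 95049036 to 95052222, 4.82 Mb from Zfp352. Junb (84976909 to 84978748), Ier2 (84661331 to 84662852) and Jund (70697739 to 70700616) are all on chromosome 8. Junb overlaps Prdx2, Fosl1 overlaps Ccdc85b, Jun and Jund overlap the antisense RNAs Junos and Gm11175, and Atf3 overlaps the small RNA gene Gm24748, all on the opposite strand. Whether the counting used the strand is not given in the sources used here. Every library's expected count (RSEM's estimate of a gene's reads) for Junb was a whole number, and Prdx2 did not pass the test in KO (log2 fold change -0.13, adjusted p = 0.10) or DKO cells (-0.16, adjusted p = 0.056, both edgeR). Expected counts of Fosl1 were fractional in all 9 libraries, so its reads were divided with other genes.

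The libraries held between 16599004 and 22044820 expected counts. The targeted Zfp352 was at 1.86 ± 0.162 TPM (SD, n = 3) in Parental, 0.293 ± 0.126 in KO and 0.0733 ± 0.0577 in DKO cells, with log2 fold changes of -2.65 ± 0.32 (SE, edgeR adjusted p = 6.1e-05) and -4.64 ± 0.42 (adjusted p = 8.0e-07). The deposited tables held no row named Zfp353, so the loss of that gene was not checked here. Long transcripts were weighted differently from library to library. Spearman's rho was taken over genes between transcript length and the log2 deviation of a library from the average library. It ran from -0.402 to -0.0813 in Parental, from -0.0655 to 0.391 in KO and from -0.127 to 0.362 in DKO libraries. The Parental and KO ranges did not overlap, so this trend was not separate from genotype, while the Parental and DKO ranges did overlap.

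Fosl2, Atf3, Jun, Junb and Jund fell in both edited genotypes relative to Parental cells, Fosl2 and Atf3 by the largest amounts. Ier2 fell slightly in KO cells, Fos, Fosb and Egr1 did not pass the test in either genotype, and Fosl1 was not tested. By edgeR's quasi-likelihood test with a Benjamini-Hochberg adjusted p under 0.05 over all 14300 tested genes, 6 of the 9 tested members fell in KO cells and 5 of 9 in DKO cells. Over all tested genes, 3.64% fell in KO and 4.82% in DKO cells, and 7.06% and 8.47% changed in either direction. In these bulk libraries, fewer cells of a type and less RNA per cell cannot be told apart. None of the 9 rose in either comparison with Parental (none at an unadjusted p under 0.05, nor by DESeq2 or limma), while 3.43% and 3.65% of all genes did. The median log2 fold change of the 9 was -0.37 in KO and -0.34 in DKO cells, against -0.01 and 0.00 over all tested genes. Both comparisons use the same 3 Parental libraries, so they are not independent of each other. Without Parental library 1, 2 members fell in each comparison (Fosl2 and Jund in KO, Fosl2 and Atf3 in DKO), and the omission of KO library 1 or 2 left 2 and 3 in KO cells.

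Markers of the cells themselves were read beside these genes. All 10 pluripotency markers were present, with Pou5f1 at 1163 ± 52.3 TPM and Nanog at 404 ± 1.23 TPM in Parental cells (SD, n = 3). The list summed to 7827 to 7943 TPM in Parental, 7808 to 7913 in KO and 7884 to 7942 in DKO libraries. Fgf4 rose in both comparisons (0.16 ± 0.05 and 0.20 ± 0.05, edgeR adjusted p = 0.044 and 0.0085) and Sox2 in DKO cells (0.19 ± 0.04, adjusted p = 0.011). Of 11 tested fibroblast-type markers 5 fell in each comparison with Parental, among them Col1a1 (-1.15 ± 0.09 in KO cells, adjusted p = 4.8e-07). Col1a1, Col1a2, Tagln and Acta2 fell in both, Thy1 only in KO and Col3a1 only in DKO cells. Pdgfra, Pdgfrb, Fbln2, Postn and Twist1 passed in neither. Without KO library 1 or 2, 3 of the 11 fell in KO cells. Tagln, the most abundant of the list, averaged 51.8, 31.5 and 22.4 TPM in Parental, KO and DKO cells. That list of 15 summed to 96.5 to 107 TPM in Parental, 59.3 to 70.8 in KO and 46.5 to 54.1 in DKO libraries, with Lum at 0 in every Parental and KO library and Dcn and Prrx1 below 0.2 TPM on average in each genotype. Of 11 tested trophectoderm-type markers the same 5 fell in each comparison (Cdx2, Hand1, Krt8, Krt18 and Krt19). The other 6 did not pass (Eomes, Gata3, Tfap2c, Ascl2, Tead4 and Krt7). The 12 listed summed to 411 to 468, 303 to 308 and 270 to 283 TPM. In Parental, KO and DKO cells Krt8 averaged 139, 83.4 and 71.6 TPM, Krt18 120, 83.8 and 69.8 and Krt19 85.2, 44.9 and 42.0. Tfap2c averaged 62.1, 64.2 and 64.6 TPM. Primitive endoderm-type markers (18.8 to 22.5, 20.6 to 25.9 and 22.2 to 28.6 TPM) and neural-type markers (153 to 159, 147 to 155 and 149 to 154 TPM) overlapped between Parental and edited libraries. Of these, Lama1 rose in DKO cells and Nes fell in both comparisons. The keratin gene Krt18 stands in both the trophectoderm-type list and the list of AP-1 targets below. The part of these markers in the falls of the AP-1 and other genes was not tested.

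**Figure D1:**
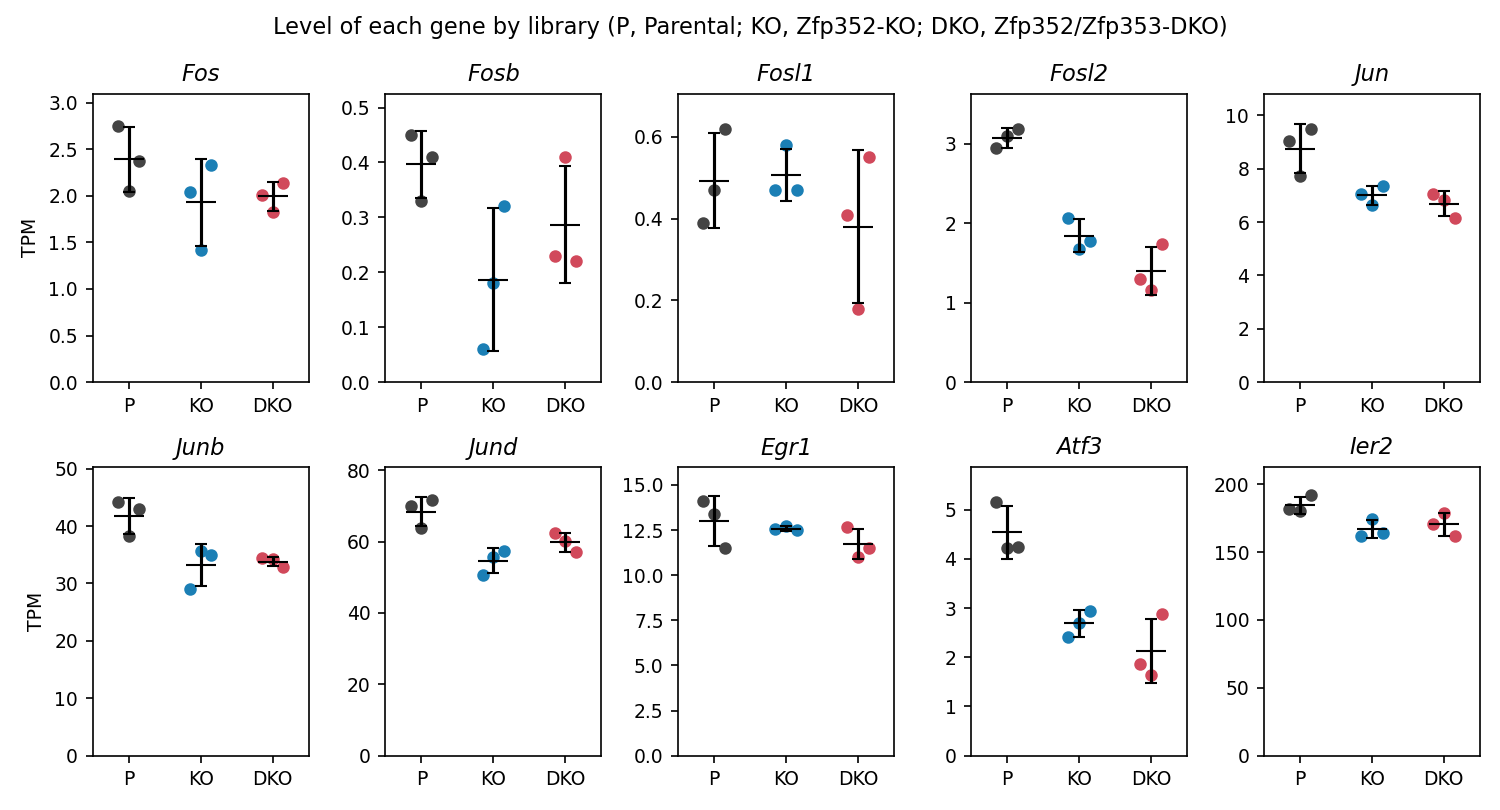
Level of each of the 10 genes in TPM (linear axis from 0, scaled per gene), with 1 point per library, a horizontal mark at the mean and bars of 1 SD (n = 3). Fosl2 and Atf3 show the widest gap between Parental (P) and edited libraries (KO, DKO), and the Egr1 and Fosl1 points of the 3 genotypes overlap.

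Among the FOS subunits, Fosl2, which encodes FRA-2, a FOS protein without the transactivation domain of FOS, showed the clearest fall. Fosl2 was at 2.94, 3.10 and 3.18 TPM in Parental libraries 1 to 3, at 2.07, 1.67 and 1.78 in KO libraries and at 1.3, 1.16 and 1.74 in DKO libraries. Every edited library lay below every Parental one. The log2 fold change was -0.79 ± 0.12 (SE) in KO (edgeR adjusted p = 0.00080) and -1.18 ± 0.13 in DKO cells (adjusted p = 6.9e-06), or 0.578 and 0.442 of the Parental level. Both calls held in all 20 alternative settings that were run, which covered other scalings, filters, tools and thresholds and the omission of each library in turn.

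Fos, the founding member and the most rapidly induced one, was at 2.75, 2.05 and 2.37 TPM in Parental, 2.04, 1.42 and 2.33 in KO and 2.01, 1.83 and 2.14 in DKO libraries. These ranges overlap in TPM. Its log2 fold changes of -0.37 ± 0.20 and -0.30 ± 0.20 had edgeR adjusted p of 0.29 and 0.38. Fos had 34 to 67 expected counts per library, and its KO libraries spread from 1.42 to 2.33 TPM.

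Fosb, whose product also pairs with JUN proteins, had 2 to 20 expected counts per library. Its level was 0.45, 0.33 and 0.41 TPM in Parental, 0.06, 0.18 and 0.32 in KO and 0.23, 0.41 and 0.22 in DKO libraries. The KO libraries lay just below the Parental ones and spread widely among themselves, and the DKO libraries overlapped them. The edgeR test gave log2 fold changes of -1.04 ± 0.43 (adjusted p = 0.14) and -0.48 ± 0.39 (adjusted p = 0.49). Without KO library 3, its change in KO cells was -1.62 and passed the threshold (adjusted p = 0.049). Fosl1, which encodes FRA-1, was not tested. It averaged 0.493 ± 0.117 TPM in Parental, 0.507 ± 0.0635 in KO and 0.380 ± 0.187 in DKO cells (SD, n = 3).

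The 3 JUN genes were more abundant than the FOS genes, Junb and Jund by far, and all 3 fell in both edited genotypes. Jund, the JUN subunit that is usually present without stimulation, was the most abundant of the AP-1 subunits, at 69.8, 63.8 and 71.5 TPM in Parental libraries. It was at 50.7, 55.8 and 57.4 TPM in KO and at 62.4, 60.0 and 57.1 TPM in DKO libraries. No edited library reached the lowest Parental one. Jund fell by 0.37 ± 0.06 on the log2 scale in KO cells (edgeR adjusted p = 0.0019), and that call held under every alternative run. In DKO cells it fell by 0.23 ± 0.06 (adjusted p = 0.028), a call that was lost in 7 of 20 alternatives, among them the omission of Parental library 1 (adjusted p = 0.13) or 3 (0.064), or of DKO library 2 (0.080) or 3 (0.11).

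Junb, an inducible subunit that can dampen the activity of JUN, was at 44.1, 38.3 and 43.0 TPM in Parental, 29.1, 35.7 and 35.0 in KO and 34.4, 34.2 and 32.9 in DKO libraries. All 6 edited libraries were below the 3 Parental ones, and KO library 1 was the lowest. The log2 fold changes were -0.37 ± 0.08 (edgeR adjusted p = 0.0093) and -0.34 ± 0.08 (adjusted p = 0.0096). The KO call was lost without KO library 1 (adjusted p = 0.053), both were lost without Parental library 1 (0.079 and 0.077), and the DKO call was lost by limma on log2(TPM + 1) (0.052).

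Jun, the prototype subunit and a target of its own product, was at 9.03, 7.73 and 9.49 TPM in Parental, 7.05, 6.63 and 7.35 in KO and 7.06, 6.84 and 6.16 in DKO libraries. Groups did not overlap between Parental and edited cells, though Parental library 2 lay close to the edited ones. Jun fell by 0.36 ± 0.09 in KO (edgeR adjusted p = 0.029) and by 0.42 ± 0.09 in DKO cells (adjusted p = 0.0091). In KO cells the call was lost in 7 of 20 alternatives, which included the omission of Parental library 1 (adjusted p = 0.14) or 3 (0.074) and of KO library 1 (0.10) or 2 (0.12). In DKO cells it was lost in 2 of 20, without Parental library 1 (0.061) and by limma on log2(TPM + 1) (0.060).

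**Figure D2:**
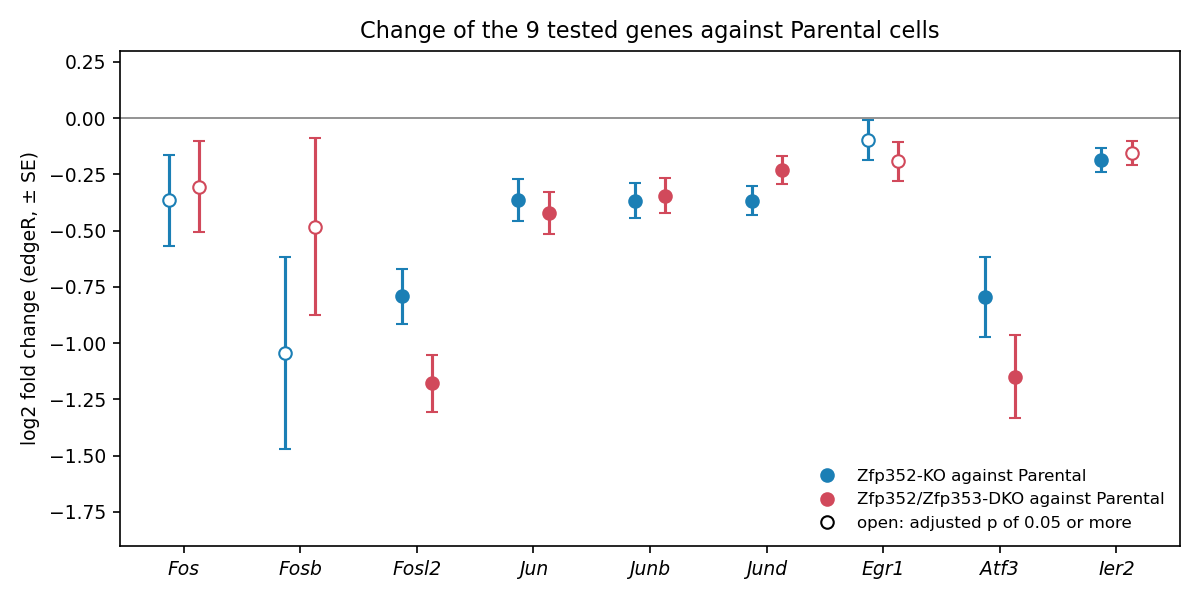
Log2 fold change against Parental cells (vertical axis, edgeR, bars of 1 SE) of the 9 tested genes, in blue for KO and in red for DKO, with filled points for an adjusted p under 0.05. All 18 points lie below 0, and Fosl2 and Atf3 hold the lowest filled points.

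Summed over the family, FOS transcripts were at 6.35 ± 0.350 TPM in Parental, 4.46 ± 0.547 in KO and 4.06 ± 0.543 in DKO cells (SD, n = 3). JUN transcripts summed to 119 ± 7.95, 94.9 ± 6.99 and 100.3 ± 3.84 TPM. In both sums every edited library was below every Parental library. Fosl2 made up 45.0% to 52.1% of FOS family transcripts in Parental libraries, 36.3% to 44.6% in KO and 32.4% to 37.4% in DKO libraries, and Fos took the larger share in all 3 DKO libraries. Within the JUN family the shares moved little: Jund held 56.8% to 58.1%, 56.8% to 58.4% and 59.4% to 60.1% in the same order. These shares describe the libraries and were not tested.

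**Figure D3:**
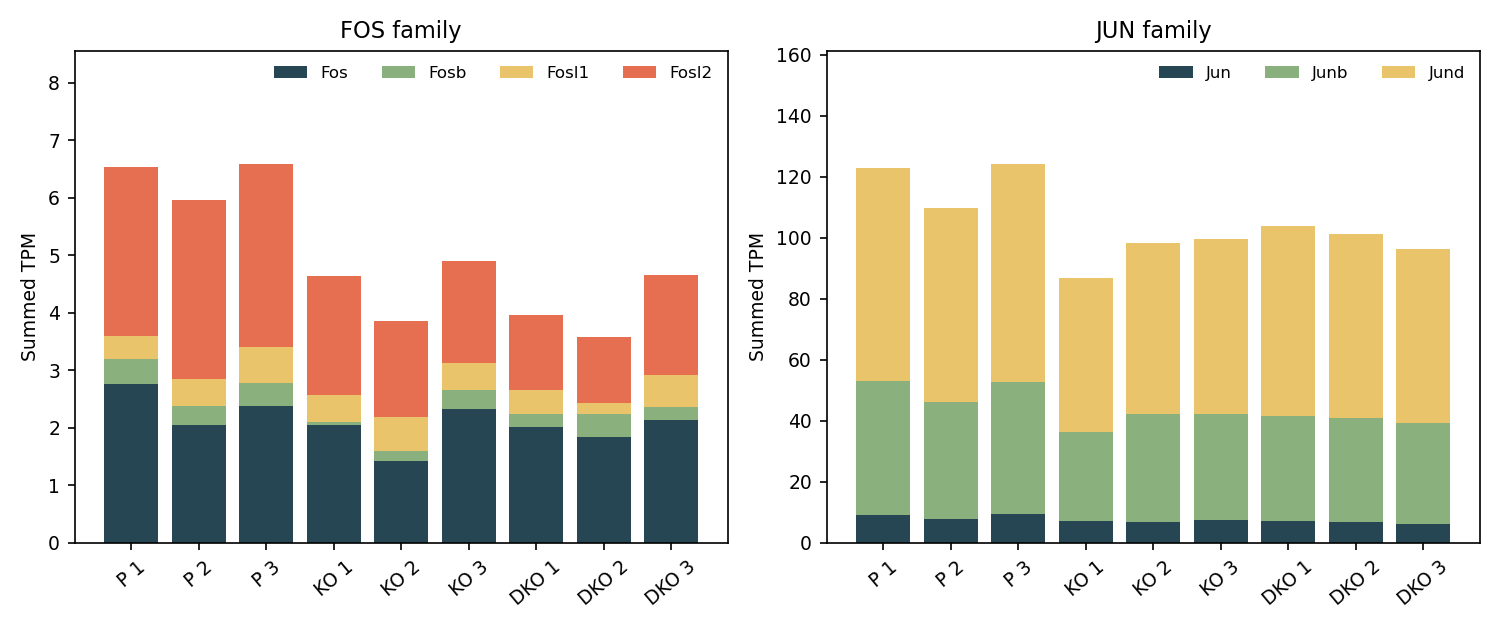
Summed TPM (vertical axis, linear from 0) of the FOS family on the left and the JUN family on the right, with 1 bar per library stacked by gene. The FOS bars stand at 5.95 to 6.58 TPM in Parental (P) and 3.58 to 4.90 TPM in edited libraries (KO, DKO), and the JUN bars at 110 to 124 TPM and 86.9 to 104 TPM.

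Outside the FOS and JUN subunits, Atf3, a stress-induced basic leucine zipper factor that pairs with JUN proteins and often represses, fell by the most. Its level was 5.15, 4.22 and 4.24 TPM in Parental, 2.41, 2.7 and 2.95 in KO and 1.87, 1.64 and 2.87 in DKO libraries. The edited and Parental ranges were well apart. Atf3 fell by 0.79 ± 0.18 on the log2 scale in KO cells (edgeR adjusted p = 0.012) and by 1.15 ± 0.18 in DKO cells (adjusted p = 0.00058). The latter held under every alternative run. The former was lost without Parental library 1 (adjusted p = 0.098) or without KO library 1 (0.068) or 2 (0.053).

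Egr1, a zinc finger factor that ERK signalling induces through serum response factor, was at 14.1, 13.4 and 11.5 TPM in Parental, 12.6, 12.7 and 12.5 in KO and 12.6, 11.0 and 11.5 in DKO libraries. The groups overlapped, and edgeR gave log2 fold changes of -0.10 ± 0.09 (adjusted p = 0.55) and -0.19 ± 0.09 (adjusted p = 0.19). Parental library 3 was as low as the edited libraries, and without it Egr1 passed the threshold in DKO cells (-0.29 ± 0.08, adjusted p = 0.040).

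Ier2, a nuclear immediate early protein of less well defined function, was the most abundant member and made up 55.0% to 60.4% of the summed TPM of the 10. It was at 182, 180 and 192 TPM in Parental, 162, 175 and 164 in KO and 171, 178 and 162 in DKO libraries. No edited library reached the Parental range, but the gap was small. Ier2 fell by 0.19 ± 0.05 in KO cells (edgeR adjusted p = 0.042), and its change of -0.15 ± 0.05 in DKO cells did not pass (adjusted p = 0.084). The KO call was the least firm of the members' calls, lost in 12 of 20 alternatives, including the removal of the transcript-length trend (adjusted p = 0.093) and the omission of any Parental or KO library (0.070 to 0.205).

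Counted by separation alone, 7 of the 9 tested members had all KO libraries below all Parental libraries in CPM, counts scaled to library depth alone, where 15.8% of tested genes did. In DKO cells 7 of 9 did as well, where 15.3% of tested genes did. Fosb was among the 7 only in the first set, and Fos only in the second. Fosb had passed the filter only with its Parental libraries counted.

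The edited genotypes were then compared with each other directly. None of the 9 passed in either direction by edgeR, DESeq2 or limma. Over all tested genes, edgeR called 0.105% (0.0909% lower and 0.014% higher). The libraries of all 9 overlapped in CPM between these genotypes, while 4.97% of tested genes lay wholly lower and 6.22% wholly higher. At an unadjusted p under 0.05, Fosl2 was lower (log2 fold change -0.39 ± 0.14, adjusted p = 0.59) and Jund higher (0.14 ± 0.06, adjusted p = 0.76) in DKO than in KO cells. Atf3 stood at -0.36 ± 0.20 and Fosb at 0.56 ± 0.46, with adjusted p of 0.84 and 0.92. Jun (-0.06 ± 0.10), Junb (0.02 ± 0.08), Ier2 (0.03 ± 0.05), Egr1 (-0.10 ± 0.09) and Fos (0.06 ± 0.21) had adjusted p from 0.94 to 0.99 in the same edgeR test.

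Among other immediate early genes, falls outnumbered rises in both comparisons. Of 48 listed genes 42 were tested, and 13 fell and none rose in KO cells (2 were higher at an unadjusted p under 0.05, and none rose by DESeq2 or limma), with a median log2 fold change of -0.16. In DKO cells 16 fell and 2 rose, with a median of -0.21. The matricellular genes Cyr61 (-0.78 ± 0.08 and -1.06 ± 0.08) and Ctgf (-0.44 ± 0.08 and -0.57 ± 0.08) were lower in both. The MAP kinase phosphatase gene Dusp1 (-0.36 ± 0.07 and -0.37 ± 0.07), the growth arrest gene Gadd45b (-0.46 ± 0.11 and -0.54 ± 0.11) and Zfp36, whose product destroys mRNAs with AU-rich elements (-0.28 ± 0.07 and -0.48 ± 0.07), fell as well. So did Cited2, a coactivator-binding gene (-0.26 ± 0.06 and -0.39 ± 0.06). The edgeR adjusted p-values of these 6 genes ran from 7.4e-06 to 0.027 in KO and from 6.6e-08 to 0.0038 in DKO cells. In DKO cells all 6 calls held in every alternative, as did those of Cyr61 and Ctgf in KO cells. Dusp1, Gadd45b, Zfp36 and Cited2 were each lost in 3 to 9 of 20 alternatives in KO cells, including the omission of Parental library 1 and of KO library 2. The 2 risers in DKO cells were Btg1 (0.23 ± 0.07, adjusted p = 0.045) and Sik1 (0.15 ± 0.05, adjusted p = 0.048), named after their values were seen. Neither passed by DESeq2 or limma, or without any 1 of the Parental libraries. The relatives Egr2, Egr3 and Egr4 were below 0.4 TPM on average in each genotype and were not tested. Without Parental library 1, the list's falls were 2 in KO and 9 in DKO cells. They were 6 and 8 in KO cells without Parental library 2 or 3, 3 and 4 without KO library 1 or 2, and 9 in DKO cells without DKO library 3. By limma on log2(TPM + 1) they were 2 and 10.

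Among textbook targets of AP-1, keratin, vimentin and metallothionein genes fell. Of 36 listed genes 29 were tested, with 7 falls and no rise in KO (1 higher at an unadjusted p under 0.05, 0 by DESeq2 and limma) and 7 falls and 1 rise in DKO cells. The median log2 fold changes were -0.17 and -0.16. The keratin gene Krt18 (-0.57 ± 0.07 and -0.82 ± 0.07), the intermediate filament gene Vim (-0.32 ± 0.05 and -0.57 ± 0.05) and the metallothionein genes Mt1 (-0.43 ± 0.06 and -0.40 ± 0.06) and Mt2 (-0.35 ± 0.06 and -0.31 ± 0.06) fell in both. The matrix gene Tnc (-0.77 ± 0.19 and -1.45 ± 0.21) fell too, from 1.67 TPM in Parental cells. The edgeR adjusted p-values of these 5 genes were at most 0.022. Their calls held in all 20 alternatives except that of Tnc in KO cells, which was lost in 7, among them the omission of any Parental library or of KO library 1 or 2. The single rise was Spp1, encoding osteopontin (0.18 ± 0.05, edgeR adjusted p = 0.021), named after its value was seen and lost without Parental library 1 or 3 or DKO library 2 or 3. The matrix metalloproteinase gene Mmp3 was at 0 in all libraries, and Mmp10 and Mmp13 were too low to test. Without Parental library 1 or 2, or KO library 1 or 2, 4 of the targets fell in KO cells.

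Genes acting upstream of AP-1 had median log2 fold changes of -0.01 in both comparisons. Of 33 tested kinase, RAS, serum response factor and ternary complex factor genes, 1 rose and 1 fell in KO cells, a share near that of all tested genes (3.43% higher and 3.64% lower). These were Rps6ka3, an ERK-activated kinase (0.26 ± 0.07, edgeR adjusted p = 0.031), and Hras (-0.25 ± 0.06, adjusted p = 0.029). None passed in DKO cells by edgeR, DESeq2 or limma, with 6 higher and 4 lower at an unadjusted p under 0.05. Rps6ka3 was lost in 8 and Hras in 9 of 20 alternatives, and neither passed without Parental library 1 or 2 or KO library 1 or 2.

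Other basic leucine zipper genes had medians of 0.03 in KO and 0.00 in DKO cells. Of 33 tested, 1 fell in KO cells, Cebpb, which encodes C/EBPβ (-0.91 ± 0.16, edgeR adjusted p = 0.0028, held in all 20 alternatives), where 3.64% of all tested genes fell. In DKO cells none fell (3 at an unadjusted p under 0.05, 0 by DESeq2 or limma). Bach1 (0.29 ± 0.08, edgeR adjusted p = 0.027), the oxidative stress factor gene Nfe2l2 (0.19 ± 0.05, 0.033) and the AP-1 partner gene Atf2 (0.20 ± 0.06, 0.047) rose there, where 3.65% of all tested genes did. These 3 calls were lost in 5 to 11 of 20 alternatives, and none passed without Parental library 1 or 2 or DKO library 3. Cebpb did not pass between the edited genotypes by edgeR (0.72 ± 0.17, adjusted p = 0.15), but it passed by DESeq2, and in edgeR without the filter, with the length trend removed or without DKO library 3. The genes for turnover of AP-1 mRNAs and proteins and for silencing gave 2 rises of 17 in KO and 1 in DKO cells. Over all tested genes, 3.43% rose in KO and 3.65% in DKO cells. Zfp36l1, a relative of Zfp36, rose in both (0.23 ± 0.05 and 0.20 ± 0.05, edgeR adjusted p = 0.016 and 0.024), and the corepressor gene Ncor1 in KO cells (0.29 ± 0.07, adjusted p = 0.022). None of these rises passed without Parental library 1 or 2.

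Heat shock genes, which handling stress induces together with immediate early genes, did not fall by the edgeR test. Of 14 tested, 2 rose in KO and 1 in DKO cells, and none fell (2 and 1 were lower at an unadjusted p under 0.05, and DESeq2 gave 1 fall in KO and limma none). Over all tested genes, 3.43% rose and 3.64% fell in KO cells, and 3.65% rose and 4.82% fell in DKO cells. Hspa1b, an inducible HSP70 gene, rose in both (0.35 ± 0.06 and 0.32 ± 0.06, edgeR adjusted p = 0.0020 and 0.0026), and Hsp90aa1 in KO cells (0.16 ± 0.04, adjusted p = 0.036). The Hspa1b calls held in all 20 alternatives, and that of Hsp90aa1 was lost in 6, among them the omission of Parental library 1 or 3 or KO library 1 or 2. The part of handling in the changes of heat shock or immediate early genes was not tested.

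**Figure D4:**
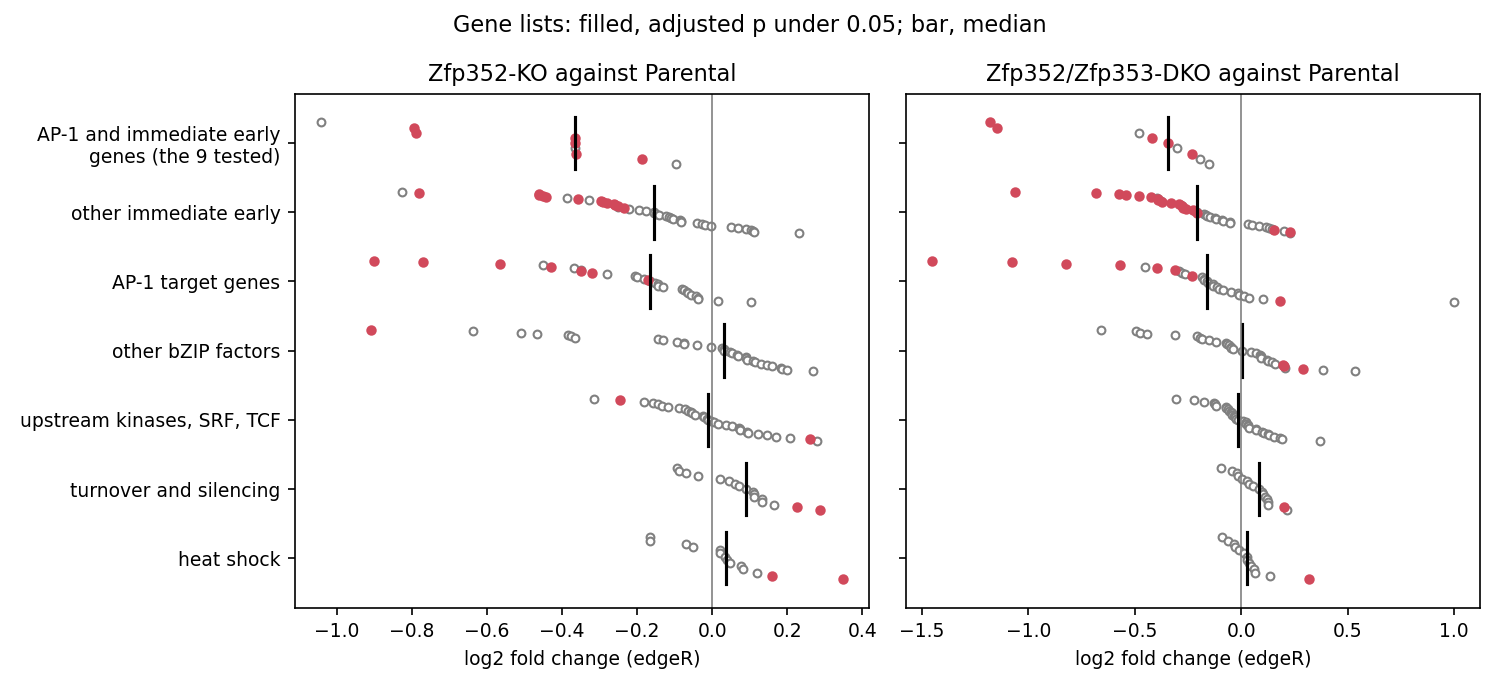
Log2 fold change (horizontal axis, edgeR) of each tested gene of 7 lists (rows), against Parental cells, for KO on the left and DKO on the right. Filled points have an adjusted p under 0.05, and the black bar is the list's median. The upper 3 rows lie mostly to the left of 0, and the medians of the lower 4 rows lie between -0.01 and 0.09.

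For each tested member, the genes whose log2 CPM ran most alike over the 9 libraries were looked up among 10852 tested genes of at least 2 TPM. The closest to Fosl2 were Wnt7b (Pearson's r 0.99), Msn (0.97) and Ror2 (0.97), and the closest to Atf3 were Gbp2 (0.98), Cyfip2 (0.97) and Scd2 (0.97). Gbp2 averaged 13.3, 7.37 and 5.44 TPM in Parental, KO and DKO cells. Jun ran closest to Tead3 (0.99), Cbx6 (0.98) and Rab40c (0.97), Junb to Akr1a1 (0.98), Get4 (0.97) and Mrpl28 (0.96), and Jund to Sccpdh (0.99), Pim3 (0.98) and Acbd4 (0.98). Ier2 ran closest to Rarg, Mrpl43 and Ehd1, with r of 0.98 to 0.99. For Fos they were Ppt2 (0.96), Josd1 (0.95) and Gramd4 (0.95), for Fosb Map1lc3b (0.97), Vmp1 (0.95) and Guk1 (0.95), and for Egr1 Tmem258 (0.94), Ears2 (0.92) and Gadd45gip1 (0.92). The libraries share depth, genotype and length trend across all genes, and the best of 10852 over 9 libraries is high by selection, so these values only describe likeness.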

How the data were processed

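Messenger RNA of 9 libraries was sequenced from stranded TruSeq libraries, per the labels' protocols. The submitters' processing notes name RSEM 1.3.3, STAR 2.7.8a, Trim Galore 0.6.6 and build mm10. The sources used here do not give their order, settings or annotation release. Per the file headers, the authors deposited RSEM expected counts, which divide shared reads, and TPM, scaled to transcript length and depth, used here for levels. Expected counts were rounded, filtered (filterByExpr), scaled (TMM) and fitted in edgeR 4.0.16 (R 4.3.3) with 1 mean per genotype over the 9 libraries, leaving 6 residual degrees of freedom. Calls use the quasi-likelihood F test at an adjusted p (Benjamini-Hochberg, 14300 genes) under 0.05, and SEs derive from F. The members and gene lists were chosen with earlier results of these data known. Named genes were the members, Zfp352, up to 4 called genes per list and comparison with the smallest adjusted p, markers, and the 3 genes most like each member in log2 CPM. On simulated counts, 75% of genes changed 1.5-fold and 88% changed 2-fold were recovered for Zfp352-KO against Parental (14175 genes, 18 false calls). The shares were 67% and 87% for Zfp352/Zfp353-DKO against Parental (14181 genes, 9 false calls). Between the edited genotypes they were 73% and 83% (14175 genes, 10 false calls). Changes below 1.5-fold, such as those of Jun, Junb, Jund and Ier2, were not simulated. Nor was the trend with transcript length, so the false calls do not cover it. Alternatives were other scalings, filters and thresholds, DESeq2 1.42.0, limma 3.58.1 on log2(TPM + 1), a replicate block, removal of a local regression trend (span 0.3) on transcript length, the 6 libraries compared alone, and omission of each library. Untranslated regions came from GENCODE transcripts matched by RefSeq accession.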

Additional observations from a re-analysis of the deposited data

How the results depend on the processing

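Against Parental cells, the members kept the negative sign of their log2 fold changes under each alternative, and Fosl2 was called in all of them in both comparisons, Jund in Zfp352-KO and Atf3 in Zfp352/Zfp353-DKO cells. DESeq2 called the same members as edgeR. Counts of calls depended more on the setting, and the cause was not tested. The lowest expected counts among the tested members were those of Fosb, at 2 to 20 per library.

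For Zfp352-KO against Parental, 490 genes rose and 520 fell. With limma on log2(TPM + 1) the counts were 122 and 237, with the length trend removed 300 rose, with the 6 libraries compared alone 759 rose, and without the filter 843 rose. At an adjusted p under 0.01 they were 73 and 184. Over single omitted libraries, 50 to 838 rose and 160 to 714 fell. Of the 10 members, 3 fell at 0.01 and 2 to 6 over omitted libraries. Over the other lists together, 6 rose and 32 fell. These were 3 and 15 by limma, 1 and 16 at 0.01, and 1 to 8 and 15 to 37 over omitted libraries.

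For Zfp352/Zfp353-DKO against Parental, 522 rose and 689 fell, by limma 193 and 385, at 0.01 134 and 333, without the filter 800 rose, and over omitted libraries 123 to 697 and 326 to 726. By limma 2 members fell, and over omitted libraries 2 to 5. Over the other lists 11 rose and 33 fell. By limma 6 rose, at 0.01 3, and over omitted libraries 3 to 14 rose and 25 to 34 fell.

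Between the edited genotypes 2 genes were higher and 13 lower. The counts were 5 and 22 by DESeq2, 0 and 1 by limma, 22 and 44 without the filter, 7 and 36 with the length trend removed, 0 and 3 with the 6 libraries alone and 0 and 3 at 0.01. Over omitted libraries they were 0 to 8 and 3 to 14. Over the other lists, 0 were higher and 4 lower. These were 1 and 7 by DESeq2, 2 and 7 without the filter, 1 and 7 with the length trend removed, and 0 lower by limma, with the 6 libraries alone and at 0.01. Over omitted libraries they were 0 to 2 and 0 to 5. Small uncalled differences between the edited genotypes changed sign over omitted libraries: Fos ran from -0.136 (without Zfp352-KO library 2) to 0.253, Jun from -0.116 to 0.0154 (without Zfp352/Zfp353-DKO library 3), Junb from -0.072 (without Zfp352-KO library 1) and -0.0041 (without Zfp352/Zfp353-DKO library 1) to 0.0761, and Ier2 from -0.0085 (without Zfp352/Zfp353-DKO library 2) and -0.0012 (without Zfp352-KO library 1) to 0.09.

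The labels do not say whether a replicate number pairs libraries of different genotypes. Deviations from the group means had correlations of -0.0767 to 0.1057 between same-numbered libraries and of -0.0845 to 0.1013 between differently numbered ones. These values showed no sign of pairing but cannot exclude it. With a replicate block, 232 genes rose and 337 fell in Zfp352-KO and 333 rose in Zfp352/Zfp353-DKO cells, 7 of the other lists' genes rose in Zfp352/Zfp353-DKO cells, and 8 genes were lower between the edited genotypes. With the block, 4 members fell in each comparison with Parental. With the replicate block and the length trend removed, 206 genes rose in Zfp352-KO cells and 4 were higher between the edited genotypes. DESeq2 gave no adjusted p for Fos and Fosb in Zfp352-KO against Parental.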

Other observations

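Libraries of 1 genotype were not ordered alike over the 10 genes. In CPM, Zfp352-KO library 1, the shallowest of the 9, was the lowest Zfp352-KO library for 7 of the 10 genes, and Zfp352-KO library 3 was the highest for 7. Among Zfp352/Zfp353-DKO libraries, library 1 was the lowest for 0 of the 10, and libraries 2 and 3 for 5 each. Among Parental libraries, library 1 was the highest for 5 genes and library 2 the lowest for 5.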
